A study of Arabidopsis thaliana with 9 samples.

Results

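RNA of protoplasts made from Arabidopsis thaliana root tips was set against RNA of intact root tips, gene by gene, across 15110 of the 33550 genes in the deposited bulk table. These were all nuclear genes, 33272 in the table, that reached 5 FPKM in either library, and no other choice was made among them. FPKM is the number of sequenced fragments of a gene, scaled to the length of its transcript and to the size of the library. Both groups were Col-0 plants of 6 days, grown at 23 °C in continuous light, with 1 library each. For the protoplasts, root tips were turned into protoplasts before grinding, and the intact tips were ground directly. The intact library is titled whole root although the protocol names root tips for both, and the labels give neither the enzymes, the digestion time nor the number of plants pooled. Differences from the enzymes, from the time in solution, from the cells recovered and from the tissue taken therefore cannot be told apart here. The wider series of 9 samples also held nuclei of 7-day-old whole roots, grown at 25 °C, of which the averages of 21 nucleus clusters are used once below.

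A protoplast is a plant cell whose wall has been dissolved with enzymes such as cellulases and pectinases, in a solution that balances the pressure inside the cell. The wall is made of cellulose, hemicelluloses such as xyloglucan, pectins and glycoproteins, and cells sense its state through receptors in the plasma membrane. Protoplasts are the usual starting material for RNA profiles of separate root cells, so transcripts that differ between protoplasts and the undisturbed organ bear on how such profiles are read. Cells that are hard to release, or that lie dead or thick-walled, are known to be lost in the procedure.

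As deposited, 2-fold or larger differences, higher in protoplasts, were found for 1718 genes (11.4%), and 4582 genes (30.3%) were lower by as much, on the scale of log2(FPKM + 1), which makes differences of low genes smaller. The median gene itself lay at -0.46, a ratio of 0.729. A centred value below is a log2 difference minus that of the median gene. Once centred, 2632 genes (17.4%) were 2-fold higher and 2845 (18.8%) 2-fold lower, and the higher genes made up 48.1% of these calls in place of 27.3%. Each list of genes below is therefore set against these percentages and against the median gene, and a list whose shares lie near them does not stand apart from the table. Of the 15110 genes, 780 passed the floor in protoplasts only and 3115 in intact tips only, which favours a difference in such genes. Counts include genes listed at 0 in 1 library, for which no fold is given. With 1 library a side no difference has a replicate check, and no test was made. The read depth of the libraries could not be recovered, so the precision of single values is unknown. The FPKM of nuclear genes added up to 790900 in protoplasts and 922510 in intact tips, and the 10 highest genes held 4.35% of the sum in protoplasts and 11.3% in intact tips. The metallothionein gene MT1A and its neighbour AT1G07590 stood in the table with the same pair of values, 5328 FPKM in protoplasts and 35576 FPKM in intact tips, the highest value of each library, and 318 genes past the floor shared their pair with another gene in this way. The sums and the shares of the 10 highest genes count the values of MT1A and AT1G07590 once for each gene.

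Markers of the tissue were read in both libraries. The root tip regulators PLT1, PLT2, WOX5 and FEZ lay between 0.735 and 1.74 FPKM in protoplasts and between 0.664 and 3.39 FPKM in intact tips, all under the floor. Of 8 genes of older root tissue, 6 passed the floor in both libraries. The Casparian strip gene CASP1 was at 378 FPKM in protoplasts and 743 FPKM in intact tips, and the root hair gene EXPA7 at 219 FPKM in protoplasts and 173 FPKM in intact tips. The xylem regulator MYB46 passed only in protoplasts, at 8.09 FPKM, against 2.59 FPKM in intact tips, and the suberin gene GPAT5 was at 0.0954 FPKM in protoplasts and 2.70 FPKM in intact tips. The root cap regulator BRN1 was at 67.6 FPKM in protoplasts, against 14.7 FPKM in intact tips, and SMB, another one, at 5.91 FPKM in protoplasts and 6.01 FPKM in intact tips. Of the shoot genes, LHCB1.3 was at 0.705 FPKM in protoplasts and 25.8 FPKM in intact tips, and RBCS1A at 0.202 FPKM in protoplasts and 13.4 FPKM in intact tips. LHCB1.1 and RBCS3B were at or under 0.104 FPKM in each library, and the part of shoot RNA in other differences was not tested. In bulk RNA, fewer cells of a type and less RNA per cell cannot be told apart, which holds for every family below.

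Each gene is given with its locus, whose first digit is the chromosome. Families and pathways were taken whole from the gene annotation, by symbol and name. There were 97 lists with 3 or more members past the floor, which together held 2442 genes, or 16.2% of those compared. The medians of 54 lists lay above the median gene and those of 43 below it, and 23 lay above 0. The annotation names only part of some families, such as the class III peroxidases and the cytosolic ribosomal proteins, so a list covers the named members. Higher and lower below mean at least 2-fold in protoplasts relative to intact tips, unless a centred value is named. Where centring reverses which of the higher and the lower genes of a counted list are more numerous, the centred counts stand in the same sentence.

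Enzymes that build the wall come first. Of 24 cellulose synthase and cellulose synthase-like genes compared (40 in the table), 4 were 2-fold higher and 1 was 2-fold lower. The list median was 0.41, centred 0.87, and once centred 11 were higher and 0 lower. CESA1 (AT4G32410), a catalytic subunit of the complex that spins cellulose in growing walls, was at 268 FPKM in protoplasts and 246 FPKM in intact tips. CSLC04 (AT3G28180), which makes the glucan backbone of xyloglucan, was at 133 FPKM in protoplasts, against 44.3 FPKM in intact tips. Its log2 difference of 1.57 was the highest of the list, next to 1.29 for the mannan synthase-like gene CSLA14 (AT3G56000). The other end held CSLD5 (AT1G02730) at 2.23 FPKM in protoplasts and 5.92 FPKM in intact tips, and another primary-wall subunit gene CESA2 (AT4G39350) at 70.4 FPKM in protoplasts, against 119.9 FPKM in intact tips.

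Of 23 genes filed by name under pectin synthesis, as GAUT and GATL galacturonosyltransferases, 4 were higher and 1 lower. Whether each of these genes acts in pectin synthesis was not checked. Their median was -0.42 as deposited and 0.03 relative to the median gene, so its sign depends on the scaling. GATL6 (AT4G02130) was at 47.5 FPKM in protoplasts and 9.89 FPKM in intact tips, and GATL2 (AT3G50760) at 25.4 FPKM in protoplasts, against 5.51 FPKM in intact tips. Callose synthases make the glucan of plasmodesmata, cell plates and wound plugs. Of 7 past the floor, CALS1 (AT1G05570) alone was 2-fold lower, at 2.70 FPKM in protoplasts and 92.7 FPKM in intact tips. The other 6 lay between -0.94 and 0.03 on the log2 scale.

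Enzymes that loosen and re-join xyloglucan were lower for the most part. Of 23 xyloglucan endotransglucosylase/hydrolase (XTH) genes compared, 4 were 2-fold higher and 12 lower, and the list median was -1.09, centred -0.63, where 6 were higher and 8 lower. TCH4 (AT5G57560), the touch-induced member, was at 292 FPKM in protoplasts, against 36.4 FPKM in intact tips. XTH15 (AT4G14130) was at 196 FPKM in protoplasts and 83.8 FPKM in intact tips. The sharpest contrast within the family was with XTH31 (AT3G44990), at 2.34 FPKM in protoplasts, against 335 FPKM in intact tips. XTH24 (AT4G30270) was likewise lower, at 7.74 FPKM in protoplasts and 126 FPKM in intact tips, and the root hair-zone member XTH14 (AT4G25820), the most abundant one, was at 399 FPKM in protoplasts, against 653 FPKM in intact tips. Members of 1 family thus stood on both sides, from -6.65 to 2.97 on the log2 scale.

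Expansins, proteins that let walls creep at low pH, were split as well. Of 20 past the floor 4 were higher and 7 lower (6 and 3 once centred), and the median of -0.31 became 0.15 relative to the median gene, a change of sign. EXPA9 (AT5G02260) was at 440.4 FPKM in protoplasts and 81.7 FPKM in intact tips. EXPA17 (AT4G01630), a gene of lateral root emergence and root hairs, was at 396 FPKM in protoplasts, against 93.1 FPKM in intact tips. EXPA4 (AT2G39700) was at 1.83 FPKM in protoplasts and 19.5 FPKM in intact tips, and the expansin-like gene EXLA1 (AT3G45970) at 25.2 FPKM in protoplasts, against 104 FPKM in intact tips.

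Pectin methylesterases, which strip methyl groups from pectin, and their inhibitors had 2 of 11 members higher and 7 lower, and the list median was -1.39, centred -0.93. The pectinesterase gene PE11 (AT2G21610) had the highest ratio, at 93.9 FPKM in protoplasts and 5.28 FPKM in intact tips. PME17 (AT2G45220), the most abundant esterase of intact tips, was at 29.6 FPKM in protoplasts, against 273 FPKM in intact tips, and PME5 (AT5G47500) at 0.0537 FPKM in protoplasts and 7.65 FPKM in intact tips. Of 8 genes filed by name under pectin lyases and polygalacturonases, 0 were higher and 2 lower. Among the lower was PG2 (AT1G70370), at 9.10 FPKM in protoplasts, against 38.5 FPKM in intact tips. Whether each of these genes encodes an enzyme that cuts the pectin chain was not checked.

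Structural glycoproteins were read by class. Of 15 extensins and proline-rich wall proteins, which cross-link into the wall, 0 were 2-fold higher and 9 were lower, and the list median was -1.23, centred -0.77. EXT3 (AT1G21310), one of the most abundant transcripts of intact tips, was at 873 FPKM in protoplasts and 5287 FPKM in intact tips. EXT4 (AT1G76930) was at 14.04 FPKM in protoplasts, against 167 FPKM in intact tips, and the proline-rich peptide gene PELPK1 (AT5G09530) at 0.0987 FPKM in protoplasts and 21.8 FPKM in intact tips. The leucine-rich repeat extensin LRX2 (AT1G62440) stood at the other end, at 61.1 FPKM in protoplasts, against 34.04 FPKM in intact tips. The summed FPKM of the list was 2601 in protoplasts and 9247 in intact tips.

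Arabinogalactan proteins, heavily glycosylated surface proteins, had 4 of 36 members higher and 6 lower (9 and 4 once centred), and the list median was 0.07, centred 0.53. AGP1 (AT5G64310) was at 1595 FPKM in protoplasts and 71.9 FPKM in intact tips, and AGP24 (AT5G40730) led the list in level with 2796 FPKM in protoplasts, against 1992 FPKM in intact tips. AGP30 (AT2G33790), a root member, was at 170.4 FPKM in protoplasts and 59.5 FPKM in intact tips. The fasciclin-like members FLA6 (AT2G20520) and FLA13 (AT5G44130) were lower, FLA6 at 31.1 FPKM in protoplasts, against 213 FPKM in intact tips and FLA13 at 18.6 FPKM in protoplasts and 96.9 FPKM in intact tips.

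Genes of lignin and phenolics came next. Of 19 genes of the monolignol pathway, 0 were higher and 6 lower, at a median of -0.57 and -0.11 relative to the median gene. FAH1 (AT4G36220), the hydroxylase that opens the branch to syringyl lignin, was at 0.815 FPKM in protoplasts, against 48.7 FPKM in intact tips. HCT (AT5G48930), which feeds the main branch, was at 57.99 FPKM in protoplasts and 206 FPKM in intact tips. The most abundant member, the methyltransferase gene CCoAOMT1 (AT4G34050), was at 1726 FPKM in protoplasts, against 2231 FPKM in intact tips. Among 8 laccases, oxidases of monolignols, 1 was higher and 4 lower: LAC8 (AT5G01040) was at 170.2 FPKM in protoplasts and 39.9 FPKM in intact tips, while LAC1 (AT1G18140) was at 8.08 FPKM in protoplasts, against 44.6 FPKM in intact tips and LAC16 (AT5G58910) at 0.722 FPKM in protoplasts and 9.42 FPKM in intact tips. Of 8 named class III peroxidases, 0 were higher and 4 lower: PRXCB (AT3G49120) was at 3.33 FPKM in protoplasts, against 77.8 FPKM in intact tips and PRX71 (AT5G64120) at 9.93 FPKM in protoplasts and 129 FPKM in intact tips. RCI3 (AT1G05260), the most abundant of them, differed little, at 632 FPKM in protoplasts, against 792 FPKM in intact tips.

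The flavonoid pathway held 7 genes past the floor. TT4 (AT5G13930), the chalcone synthase at its head, was at 239 FPKM in protoplasts and 484 FPKM in intact tips, and the chalcone isomerase-like gene CHIL (AT5G05270) at 25.9 FPKM in protoplasts, against 138 FPKM in intact tips. MYB12 (AT2G47460), the factor that activates flavonol genes, was higher, at 96.4 FPKM in protoplasts and 25.8 FPKM in intact tips. F3H (AT3G51240) of the same list differed little, at 134 FPKM in protoplasts, against 152 FPKM in intact tips. Of the 7 genes 1 was higher and 2 lower (1 and 1 once centred). Only 4 of 14 named lipid transfer proteins passed the floor. EARLI1 (AT4G12480) was at 0.0523 FPKM in protoplasts, against 101.3 FPKM in intact tips, and LTPG1 (AT1G27950), which carries wax to the surface, at 2.03 FPKM in protoplasts and 7.84 FPKM in intact tips. Of 8 wall-linked receptor kinases 1 was higher and 1 lower (1 and 0 once centred), and the list median was -0.63, centred -0.18. FER (AT3G51550) (FERONIA), which binds pectin and RALF peptides, was at 187 FPKM in protoplasts, against 162 FPKM in intact tips, and THE1 (AT5G54380) at 33.5 FPKM in protoplasts and 41.4 FPKM in intact tips. The higher one was WAKL5 (AT1G16160) at 5.96 FPKM in protoplasts, against 1.63 FPKM in intact tips, and the lower one FEI1 (AT1G31420) at 12.9 FPKM in protoplasts and 33.7 FPKM in intact tips. RFO1 (AT1G79670) was at 12.2 FPKM in protoplasts, against 23.7 FPKM in intact tips, and HERK2 (AT1G30570) at 5.31 FPKM in protoplasts and 9.95 FPKM in intact tips.

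**Figure D1:**
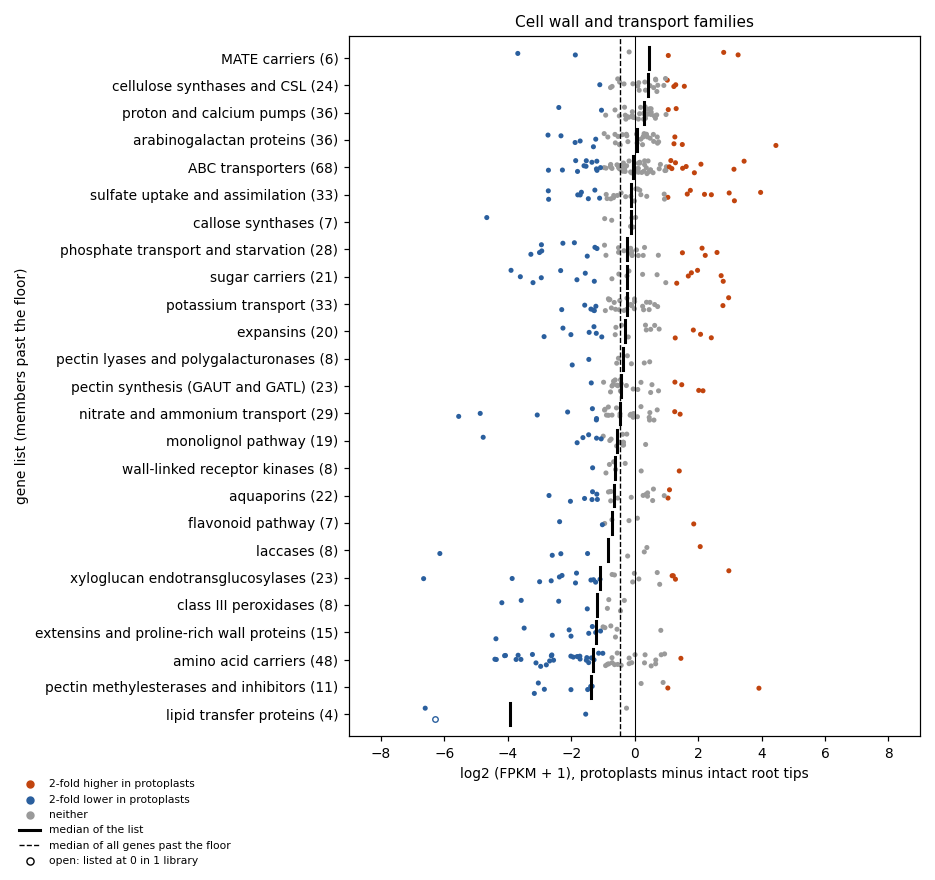
Differences in log2(FPKM + 1), protoplasts minus intact root tips, of the members past the floor of 25 wall and transport lists, 1 point a gene, with the list median as a bar and the median of all genes as a dashed line at -0.46. Cellulose synthases centre right of that line at 0.41, while extensins at -1.23 and amino acid carriers at -1.32 centre left of it.

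Transporters were examined by substrate. Water channels, the aquaporins, had 2 of 22 members higher and 7 lower (5 and 3 once centred), and the list median was -0.64, centred -0.19. The tonoplast channel TIP2;2 (AT4G17340) was at 249.9 FPKM in protoplasts, against 1629 FPKM in intact tips. The plasma membrane channel PIP1;4 (AT4G00430) was at 338 FPKM in protoplasts and 157 FPKM in intact tips, and NLM1 (AT4G19030), a NOD26-like channel, at 808 FPKM in protoplasts, against 423 FPKM in intact tips. The summed level of the family was 13814 FPKM in protoplasts and 20741 FPKM in intact tips. Proton and calcium pumps had 2 of 36 members higher and 2 lower (6 and 1 once centred), and the list median was 0.28, centred 0.74. The calcium ATPases ACA8 (AT5G57110) and ACA9 (AT3G21180) of the plasma membrane were at 128 FPKM in protoplasts and 61.1 FPKM in intact tips and at 59.8 FPKM in protoplasts, against 23.6 FPKM in intact tips. The vacuolar one, ACA4 (AT2G41560), was at 2.24 FPKM in protoplasts and 15.98 FPKM in intact tips. ACA2 (AT4G37640) was at 100.5 FPKM in protoplasts, against 50.2 FPKM in intact tips. ACA10 (AT4G29900) was at 21.1 FPKM in protoplasts and 40.7 FPKM in intact tips. The pumps were not counted by membrane, and no split by membrane is read from these genes.

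Nitrogen uptake showed close relatives far apart. AMT1;2 (AT1G64780), an ammonium transporter of cortex and endodermis, was at 0.0199 FPKM in protoplasts, against 46.7 FPKM in intact tips. AMT1;1 (AT4G13510), its relative of root hairs and outer layers, was at 109 FPKM in protoplasts and 65.9 FPKM in intact tips. NRT1.5 (AT1G32450), which loads nitrate into the xylem, was at 0.744 FPKM in protoplasts, against 49.95 FPKM in intact tips, and the anion channel gene SLAH3 (AT5G24030) at 53.7 FPKM in protoplasts and 19.3 FPKM in intact tips. The glucosinolate importers GTR1 (AT3G47960) and GTR2 (AT5G62680), members of the same NPF family, stood on opposite sides. GTR1 was at 168 FPKM in protoplasts, against 69.6 FPKM in intact tips, and GTR2 at 8.72 FPKM in protoplasts and 80.7 FPKM in intact tips. As a whole the nitrate and ammonium list lay at the median gene, at -0.47 as deposited, with 2 of 29 higher and 7 lower (4 and 4 once centred).

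Phosphate and sulfate genes contained both extremes. PHO1 (AT3G23430), which exports phosphate to the xylem, was at 2.47 FPKM in protoplasts, against 32.5 FPKM in intact tips, and its homologue PHO1;H1 (AT1G68740) at 0.0261 FPKM in protoplasts and 6.87 FPKM in intact tips. SPX1 (AT5G20150), a sensor protein of the phosphate starvation response, was at 201 FPKM in protoplasts, against 32.5 FPKM in intact tips. The phosphatase PAP22 (AT3G52820) was at 19.7 FPKM in protoplasts and 3.43 FPKM in intact tips. Of 28 genes in the phosphate list 4 were higher and 9 lower. In the sulfate list 8 of 33 were higher and 8 lower, and once centred 10 and 6. The reductases that commit sulfate to cysteine synthesis led it: APR3 (AT4G21990) was at 626 FPKM in protoplasts, against 38.999 FPKM in intact tips and APR1 (AT4G04610) at 405 FPKM in protoplasts and 44.9 FPKM in intact tips. LSU3 (AT3G49570), a small protein induced by sulfur deficit, was at 77.5 FPKM in protoplasts, against 8.95 FPKM in intact tips. The APS kinase AKN2 (AT4G39940), which directs sulfate to sulfated secondary compounds in place of cysteine, was lower, at 21.01 FPKM in protoplasts and 143 FPKM in intact tips. The final enzyme of cysteine synthesis, OASA1 (AT4G14880), was level, at 801 FPKM in protoplasts, against 780.2 FPKM in intact tips.

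Of 68 ABC transporters past the floor, 10 were higher and 12 lower (16 and 7 once centred), at a median of -0.06 that lay 0.40 above the median gene, with the sign turned by the scaling. PEN3 (AT1G59870), a plasma membrane exporter of defence compounds also named ABCG36, was at 537 FPKM in protoplasts and 145 FPKM in intact tips. ABCG37 (AT3G53480), which exports coumarins, was at 265 FPKM in protoplasts, against 61.5 FPKM in intact tips, and ABCG40 (AT1G15520), an abscisic acid importer, at 10.5 FPKM in protoplasts and 0.310 FPKM in intact tips. ABCG1 (AT2G39350), which contributes to suberin, was at 34.5 FPKM in protoplasts, against 2.25 FPKM in intact tips. At the lower end ABCI17 (AT1G67940) was at 8.66 FPKM in protoplasts and 34.03 FPKM in intact tips. Of 6 MATE carriers 3 were higher and 2 lower. EDS5 (AT4G39030), the exporter of salicylic acid precursor from plastids, was at 138 FPKM in protoplasts, against 65.7 FPKM in intact tips, and FRD3 (AT3G08040), which loads citrate into the xylem, at 0.0801 FPKM in protoplasts and 12.9 FPKM in intact tips.

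Of 21 sugar carriers 6 were higher and 8 lower (8 and 7 once centred). MSS1 (AT5G26340), the hexose importer also named STP13, was at 264 FPKM in protoplasts, against 39.1 FPKM in intact tips. The sucrose loader of the phloem, SUC2 (AT1G22710), was at 47.7 FPKM in protoplasts and 6.03 FPKM in intact tips, and the vacuolar inositol carrier INT1 (AT2G43330) at 96.9 FPKM in protoplasts, against 23.8 FPKM in intact tips. The effluxer SWEET11 (AT3G48740) was at 0.595 FPKM in protoplasts and 13.7 FPKM in intact tips, and the polyol carrier PMT6 (AT4G36670) at 0.231 FPKM in protoplasts, against 13.97 FPKM in intact tips. Of 48 amino acid carriers, 1 was higher and 27 lower, a list median of -1.32, centred -0.87, and 16 were 4-fold lower. UMAMIT41 (AT3G28050) was at 0.447 FPKM in protoplasts and 29.7 FPKM in intact tips, and UMAMIT20 (AT4G08290) at 0.137 FPKM in protoplasts, against 22.4 FPKM in intact tips. GDU1 (AT4G31730), which stimulates amino acid export, was at 0.236 FPKM in protoplasts and 20.2 FPKM in intact tips. The most abundant carrier, UMAMIT4 (AT3G18200), was at 169 FPKM in protoplasts, against 118 FPKM in intact tips. Centred on genes of like mean level, the median of the amino acid carriers was -0.55.

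Among potassium channels and carriers 2 of 33 were higher and 6 lower (4 and 2 once centred). The higher pair was KCO6 (AT4G18160), a tandem-pore channel, at 87.0 FPKM in protoplasts and 11.8 FPKM in intact tips, and the calcium-permeable channel CNGC19 (AT3G17690) at 17.3 FPKM in protoplasts, against 1.34 FPKM in intact tips. CNGC3 (AT2G46430) was at 1.77 FPKM in protoplasts and 12.6 FPKM in intact tips.

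Calcium signalling parts were level in the middle with a few far above. Of 19 calmodulins and calmodulin-like genes 5 were higher and 4 lower. CML38 (AT1G76650) was at 217 FPKM in protoplasts, against 21.02 FPKM in intact tips, and its chromosomal neighbour and near copy CML39 (AT1G76640) at 429 FPKM in protoplasts and 49.5 FPKM in intact tips, a pair between which reads could be shared. CML43 (AT5G44460) was at 2.67 FPKM in protoplasts, against 34.9 FPKM in intact tips. The calmodulin gene with the highest level, CAM2 (AT2G41110), was at 585 FPKM in protoplasts and 513 FPKM in intact tips. Calcium-dependent kinases, CBL sensors and CIPK kinases had 10 of 56 higher and 4 lower, and the list median was 0.03, centred 0.48. The sensor CBL1 (AT4G17615) was at 273 FPKM in protoplasts, against 41.5 FPKM in intact tips, and the kinases CIPK9 (AT1G01140) and CIPK12 (AT4G18700) at 33.96 FPKM in protoplasts and 5.92 FPKM in intact tips and at 113 FPKM in protoplasts, against 22.3 FPKM in intact tips. CIPK16 (AT2G25090) was at 2.73 FPKM in protoplasts and 17.4 FPKM in intact tips.

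MAP kinase cascades pass signals through 3 tiers of kinases. Of 40 members 11 were higher and 3 lower, and the list median was 0.13, centred 0.58, where 16 were higher and 1 lower. The top tier held the largest differences of the list. MAPKKK21 (AT4G36950) was at 58.2 FPKM in protoplasts, against 0.797 FPKM in intact tips, MAPKKK18 (AT1G05100), an abscisic acid-responsive kinase, at 116 FPKM in protoplasts and 4.598 FPKM in intact tips, and MAPKKK19 (AT5G67080) at 25.1 FPKM in protoplasts, against 1.75 FPKM in intact tips. The most abundant kinase, MPK17 (AT2G01450), was at 206 FPKM in protoplasts and 135 FPKM in intact tips. NADPH oxidases, which make extracellular superoxide, had 4 members past the floor. RBOH F (AT1G64060) was at 109.5 FPKM in protoplasts, against 42.7 FPKM in intact tips, the root hair oxidase RHD2 (AT5G51060) at 94.3 FPKM in protoplasts and 49.8 FPKM in intact tips, and RBOHD (AT5G47910), the main oxidase of leaf defence, at 10.2 FPKM in protoplasts, against 18.6 FPKM in intact tips.

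Cysteine-rich receptor kinases had 0 of 9 higher and 6 lower (0 and 2 once centred), and the list median was -1.10, centred -0.65. CRK25 (AT4G05200) was at 6.44 FPKM in protoplasts and 48.0 FPKM in intact tips. Signal peptide precursors were lower as a group: 7 of 42 were higher and 22 lower, and the list median was -1.13, centred -0.68. Centred on genes of like length, that median was -0.33, nearer to 0. RALF1 (AT1G02900), whose peptide makes the wall space alkaline through FERONIA, was at 112 FPKM in protoplasts, against 545 FPKM in intact tips. PROPEP2 (AT5G64890) and its neighbours PROPEP1 and PROPEP3 formed an unbroken run of 3 genes on chromosome 5 that were all 2-fold lower, and PROPEP2 was at 3.54 FPKM in protoplasts and 39.98 FPKM in intact tips. PROPEP4 (AT5G09980), of the same danger-peptide family, was at 379 FPKM in protoplasts, against 83.5 FPKM in intact tips, higher in protoplasts. CLE1 (AT1G73165) was at 124.5 FPKM in protoplasts and 7.92 FPKM in intact tips, and RGF4 (AT3G30350), a root meristem growth factor gene, at 0.116 FPKM in protoplasts, against 15.7 FPKM in intact tips.

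Hormone pathways were read by role, from synthesis to response. In ethylene, whose precursor ACC is made by ACS and oxidised by ACO enzymes, ACS6 (AT4G11280) was at 175 FPKM in protoplasts and 38.3 FPKM in intact tips and ACS8 (AT4G37770) at 30.7 FPKM in protoplasts, against 0.386 FPKM in intact tips. The ACC oxidase EFE (AT1G05010), also named ACO4, was at 239.7 FPKM in protoplasts and 60.8 FPKM in intact tips. The receptor ETR2 (AT3G23150) was at 2.30 FPKM in protoplasts, against 13.4 FPKM in intact tips, and EBF2 (AT5G25350), an F-box protein that degrades the ethylene factor EIN3, at 12.2 FPKM in protoplasts and 78.7 FPKM in intact tips. The 3 genes of synthesis named here were higher, the receptor and the F-box gene were lower, and the list as a whole lay at -0.46, the level of the median gene, with 5 of 28 higher and 8 lower (8 and 6 once centred).

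Aux/IAA proteins are auxin-induced repressors of the auxin response. Of 21 Aux/IAA genes 7 were higher and 2 lower, and the list median was 0.22, centred 0.68. IAA2 (AT3G23030) was at 558 FPKM in protoplasts, against 84.4 FPKM in intact tips, IAA19 (AT3G15540) at 211 FPKM in protoplasts and 15.8 FPKM in intact tips and IAA30 (AT3G62100) at 66.8 FPKM in protoplasts, against 1.70 FPKM in intact tips. The GH3 enzymes join auxin or jasmonate to amino acids. Of 7 past the floor 4 were higher and 0 lower, and the list median was 1.73, centred 2.19. BRU6 (AT4G37390), also named GH3.2, was at 74.0 FPKM in protoplasts and 15.7 FPKM in intact tips, and JAR1 (AT2G46370), which makes the active jasmonate conjugate, at 276 FPKM in protoplasts, against 79.1 FPKM in intact tips. GH3.17 (AT1G28130) was at 45.4 FPKM in protoplasts and 82.4 FPKM in intact tips.

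The small SAUR genes, another auxin-responsive family, had members on both sides. Of 26, 5 were higher and 10 lower (6 and 7 once centred), and the list median was -0.06, centred 0.40, with opposite signs. SAUR34 (AT4G22620) was at 51.1 FPKM in protoplasts, against 3.30 FPKM in intact tips, and SAUR32 (AT2G46690) at 1.85 FPKM in protoplasts and 40.5 FPKM in intact tips. Among auxin carriers PIN3 (AT1G70940) was at 38.96 FPKM in protoplasts, against 15.6 FPKM in intact tips, while PIN7 (AT1G23080) was at 9.94 FPKM in protoplasts and 22.9 FPKM in intact tips. The auxin response factors MP (AT1G19850) (MONOPTEROS) and ARF19 (AT1G19220) were at 14.4 FPKM in protoplasts, against 3.73 FPKM in intact tips and at 27.8 FPKM in protoplasts and 11.1 FPKM in intact tips. ARF8 (AT5G37020) was at 1.07 FPKM in protoplasts, against 9.03 FPKM in intact tips.

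In the abscisic acid pathway 10 of 36 genes were higher and 9 lower. The receptor PYL7 (AT4G01026) was at 177 FPKM in protoplasts and 5.30 FPKM in intact tips, whereas PYL4 (AT2G38310), of the same family, was at 9.41 FPKM in protoplasts, against 53.0 FPKM in intact tips. The phosphatases that hold the pathway off, ABI1 (AT4G26080) and HAI1 (AT5G59220), were at 451 FPKM in protoplasts and 89.2 FPKM in intact tips and at 140.5 FPKM in protoplasts, against 14.4 FPKM in intact tips. The kinase gene SNRK2.9 (AT2G23030) was at 0.505 FPKM in protoplasts and 20.2 FPKM in intact tips. Receptors of 1 family thus stood on opposite sides. Cytokinin genes had 9 of 38 higher and 6 lower. LOG1 (AT2G28305), which activates cytokinin, was at 14.6 FPKM in protoplasts, against 0.578 FPKM in intact tips, and CKX4 (AT4G29740), which degrades it, at 9.09 FPKM in protoplasts and 0.287 FPKM in intact tips. The phosphotransfer protein gene AHP1 (AT3G21510) was at 179 FPKM in protoplasts, against 354 FPKM in intact tips. Of the gibberellin receptors, GID1B (AT3G63010) was at 96.3 FPKM in protoplasts and 22.6 FPKM in intact tips and GID1C (AT5G27320) at 2.39 FPKM in protoplasts, against 11.3 FPKM in intact tips.

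**Figure D2:**
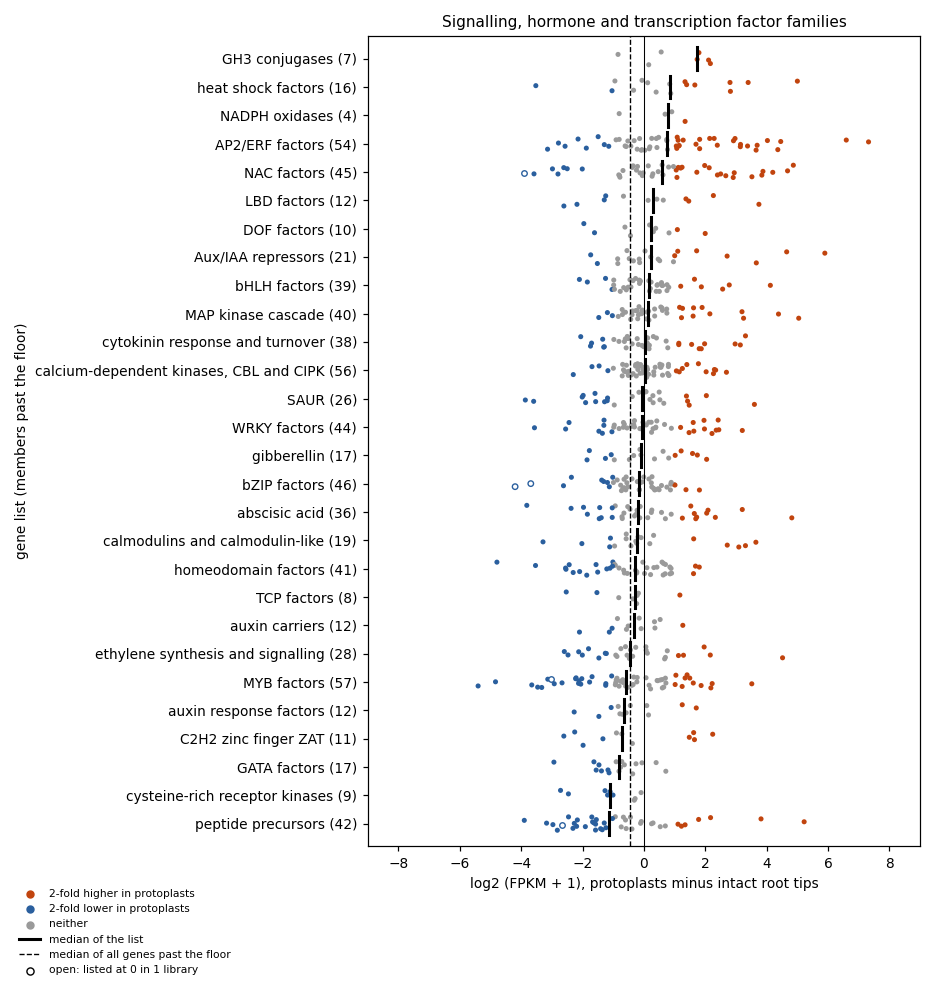
Differences in log2(FPKM + 1), protoplasts minus intact root tips, of signalling, hormone and transcription factor lists, 1 point a gene, with list medians as bars and the median of all genes dashed. GH3 conjugases at 1.73, heat shock factors at 0.86, NADPH oxidases at 0.80 and AP2/ERF factors at 0.74 lie at the top, and peptide precursors at -1.13 at the bottom.

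Transcription factors were read by family. Of 54 AP2/ERF factors past the floor 25 were higher and 8 lower, with a list median of 0.74. Of them 15 were 4-fold higher. Their summed level was 5890 FPKM in protoplasts and 1956 FPKM in intact tips. DDF1 (AT1G12610), a DREB-type factor, was at 37.6 FPKM in protoplasts and 0.758 FPKM in intact tips. On the other side ERF104 (AT5G61600) was at 17.9 FPKM in protoplasts, against 129 FPKM in intact tips, ERF105 (AT5G51190) at 7.002 FPKM in protoplasts and 69.6 FPKM in intact tips and EBP (AT3G16770), also named RAP2.3, at 3.68 FPKM in protoplasts, against 26.8 FPKM in intact tips. The branches of the family were not counted apart, and no difference between branches is read from these genes. The highest ratio of the family was that of ABR1 (AT5G64750), at 238 FPKM in protoplasts and 0.499 FPKM in intact tips.

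Of 45 NAC factors 19 were higher and 7 lower, and the list median was 0.59, centred 1.05, and all 7 lower ones were also 4-fold lower. NAC102 (AT5G63790) was at 2134 FPKM in protoplasts and 148 FPKM in intact tips, and ATAF1 (AT1G01720), a close relative, at 1056 FPKM in protoplasts, against 56.6 FPKM in intact tips. NAC019 (AT1G52890), a dehydration-induced factor, was at 36.8 FPKM in protoplasts and 0.294 FPKM in intact tips, and NAC004 (AT1G02230) at 57.0 FPKM in protoplasts, against 1.26 FPKM in intact tips. NAC1 (AT1G56010), which promotes lateral roots, was at 4.42 FPKM in protoplasts and 64.0 FPKM in intact tips. The summed level of the family was 7088 FPKM in protoplasts and 1318 FPKM in intact tips.

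Of 16 heat shock factors 7 were higher and 2 lower, and the list median was 0.86, centred 1.31. HSFA6B (AT3G22830) was at 1227 FPKM in protoplasts, against 37.4 FPKM in intact tips, HSFA2 (AT2G26150) at 17.9 FPKM in protoplasts and 0.801 FPKM in intact tips and HSFA1E (AT3G02990) at 50.1 FPKM in protoplasts, against 6.25 FPKM in intact tips. The lowest ratio was that of HSFB4 (AT1G46264), a factor of stem cells and root cap known as SCHIZORIZA, at 0.131 FPKM in protoplasts and 12.02 FPKM in intact tips. Among 12 LBD factors, ASL5 (AT2G30130) was at 168 FPKM in protoplasts, against 11.6 FPKM in intact tips, and the nitrate-responsive repressor LBD39 (AT4G37540) at 5.49 FPKM in protoplasts and 38.6 FPKM in intact tips. WRKY factors, defence regulators, had 11 of 44 higher and 8 lower. WRKY18 (AT4G31800) and WRKY40 (AT1G80840), partners in 1 complex, were at 365 FPKM in protoplasts, against 38.7 FPKM in intact tips and at 414 FPKM in protoplasts and 136 FPKM in intact tips. The related WRKY60 (AT2G25000) was at 0.360 FPKM in protoplasts, against 15.1 FPKM in intact tips. Of these 3 close relatives, WRKY60 was the lower one.

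Of 57 MYB factors 11 were higher and 20 lower (16 and 17 once centred), and the list median was -0.60, centred -0.14. Of the lower ones 15 were 4-fold lower. MYB49 (AT5G54230) was at 0.865 FPKM in protoplasts and 78.0 FPKM in intact tips, MYB59 (AT5G59780) at 0.943 FPKM in protoplasts, against 54.6 FPKM in intact tips and MYB4 (AT4G38620), a repressor of phenylpropanoid genes, at 5.32 FPKM in protoplasts and 78.7 FPKM in intact tips. MYB102 (AT4G21440), a wound-responsive factor, was at 12.3 FPKM in protoplasts, against 0.163 FPKM in intact tips, and MYBR1 (AT5G67300), also named MYB44, at 218 FPKM in protoplasts and 76.9 FPKM in intact tips. Of 39 bHLH factors 6 were higher and 4 lower. RHD6 (AT1G66470), which starts root hair formation, was at 105 FPKM in protoplasts, against 14.5 FPKM in intact tips, and its downstream relative RSL2 (AT4G33880) at 11.1 FPKM in protoplasts and 27.7 FPKM in intact tips. MYC2 (AT1G32640), the jasmonate master factor, was level, at 270.2 FPKM in protoplasts, against 239 FPKM in intact tips.

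Homeodomain factors had 3 of 41 higher and 14 lower (12 and 10 once centred), and their median of -0.28 became 0.18 relative to the median gene. HB-12 (AT3G61890), a water-deficit factor, was at 90.1 FPKM in protoplasts and 27.4 FPKM in intact tips, and HB52 (AT5G53980) at 0.0656 FPKM in protoplasts, against 28.5 FPKM in intact tips. Of 46 bZIP factors 3 were higher and 9 lower (9 and 4 once centred), and BZIP28 (AT3G10800), a membrane-tethered sensor of the endoplasmic reticulum, was at 51.1 FPKM in protoplasts and 24.8 FPKM in intact tips. GATA factors had 0 of 17 higher and 7 lower, led by GATA3 (AT4G34680) at 0.365 FPKM in protoplasts, against 9.43 FPKM in intact tips. The zinc finger factor RHL41 (AT5G59820), also named ZAT12, was at 598 FPKM in protoplasts and 194 FPKM in intact tips, and ZF3 (AT5G43170) at 2.36 FPKM in protoplasts, against 19.5 FPKM in intact tips.

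The protein synthesis machinery was read by class. Of 18 named cytosolic large-subunit ribosomal proteins 1 was higher and 15 lower, and the list median was -1.96, centred -1.50. All 18 named small-subunit proteins were 2-fold lower, between -2.87 and -1.41, at a median of -1.95. RPL18 (AT3G05590) was at 126 FPKM in protoplasts and 596 FPKM in intact tips, and RPS15 (AT1G04270) at 116 FPKM in protoplasts, against 463 FPKM in intact tips. The higher one was SAG24 (AT1G66580), which encodes the L10 variant RPL10C, at 573 FPKM in protoplasts and 229.6 FPKM in intact tips. Its paralogue RPL10B (AT1G26910) was at 22.3 FPKM in protoplasts, against 28.2 FPKM in intact tips, and reads of such near copies could be shared between them. Short genes had a lower median in general (given by length below), and centred on genes of like length the median was -1.29 for each subunit, against -1.50 relative to the median gene.

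Ribosome biogenesis genes act in the nucleolus, where ribosomal RNA is cut and modified. Of 19, 0 were higher and 18 lower, and the list median was -2.04, centred -1.58. The nucleolin NUC-L1 (AT1G48920) was at 19.9 FPKM in protoplasts and 149.9 FPKM in intact tips. NAP57 (AT3G57150), the pseudouridine synthase of ribosomal RNA also named CBF5, was at 3.43 FPKM in protoplasts, against 69.8 FPKM in intact tips, and its complex partner NOP10 (AT2G20490) at 7.95 FPKM in protoplasts and 93.2 FPKM in intact tips. Plastid and mitochondrial ribosomal proteins encoded in the nucleus had 0 of 27 higher and 20 lower, at a median of -1.39. Translation factors were closer to the median gene, with 0 of 29 higher and 10 lower (1 and 3 once centred) and a list median of -0.69, centred -0.23. The factor FBR12 (AT1G26630), an eIF5A gene, was at 407 FPKM in protoplasts, against 677 FPKM in intact tips, and aminoacyl-tRNA synthetases had 0 of 14 higher and 6 lower (0 and 1 once centred).

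Genes of protein folding and of protein breakdown follow. All 7 named genes of the CCT chaperonin and prefoldin, which fold tubulin and actin, were 2-fold lower, with the subunit gene TCP-1 (AT3G20050) at 37.4 FPKM in protoplasts and 87.2 FPKM in intact tips and PFD6 (AT1G29990) at 18.2 FPKM in protoplasts, against 61.7 FPKM in intact tips. Once centred, 3 of these 7 genes were lower and 0 higher. The proteasome, which degrades ubiquitin-tagged proteins, held few genes that were 2-fold higher or lower. Its core had 0 of 20 higher and 1 lower (0 and 0 once centred), PAD1 (AT3G51260) at 55.1 FPKM in protoplasts and 136 FPKM in intact tips, and its cap had 1 of 19 higher and 0 lower. The cap exception was RPN12b (AT5G42040) at 6.13 FPKM in protoplasts, against 1.43 FPKM in intact tips. The ATPase RPT3 (AT5G58290) was at 157 FPKM in protoplasts and 147 FPKM in intact tips. The core median of -0.45 was that of the median gene, and the cap median of -0.23 became 0.23 relative to it.

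In the endoplasmic reticulum list 3 of 43 genes were higher and 2 lower (4 and 0 once centred). BIP3 (AT1G09080), the chaperone gene induced by unfolded proteins, was at 18.6 FPKM in protoplasts, against 0.112 FPKM in intact tips, and the co-chaperone ATERDJ3A (AT3G08970) at 9.58 FPKM in protoplasts and 1.95 FPKM in intact tips. Of 38 ubiquitin-conjugating enzymes 1 was higher and 6 lower. The higher one, UBC3 (AT5G62540), was at 190.2 FPKM in protoplasts, against 56.6 FPKM in intact tips, and PHO2 (AT2G33770), which limits phosphate uptake, at 2.40 FPKM in protoplasts and 15.3 FPKM in intact tips. Autophagy genes had 2 of 31 higher and 7 lower (3 and 3 once centred). Within the ATG8 family, whose proteins coat the autophagosome membrane, ATG8H (AT3G06420) was at 420.1 FPKM in protoplasts, against 309 FPKM in intact tips and ATG8F (AT4G16520) at 77.1 FPKM in protoplasts and 228 FPKM in intact tips.

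Energy metabolism was near level as deposited beside a few sharply higher genes. Of 31 genes of the TCA cycle 0 were higher and 3 lower (4 and 1 once centred), and the list median was 0.11, centred 0.57, and of 18 respiratory chain genes 0 were higher and 1 lower (1 and 0 once centred). The ATP synthase subunit gene ATP3 (AT2G33040) was at 608 FPKM in protoplasts, against 512 FPKM in intact tips. The alternative oxidase AOX1A (AT3G22370), which bypasses the cytochrome chain, was at 154 FPKM in protoplasts and 37.4 FPKM in intact tips, and NDB2 (AT4G05020), the external dehydrogenase that works with it, at 348 FPKM in protoplasts, against 66.0 FPKM in intact tips. No other of the 10 genes of alternative respiration was 2-fold higher or lower. Glycolysis had 3 of 28 higher and 2 lower, with GAPC1 (AT3G04120) at 820.0 FPKM in protoplasts and 829 FPKM in intact tips and the hexokinase-like gene HKL1 (AT1G50460) at 56.9 FPKM in protoplasts, against 15.8 FPKM in intact tips.

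Genes of low-oxygen response were not higher together. Of 19, 3 were higher and 6 lower (4 and 4 once centred). The alcohol dehydrogenase ADH1 (AT1G77120) was at 15.1 FPKM in protoplasts and 2.68 FPKM in intact tips. Of the pyruvate decarboxylase genes, PDC3 (AT5G01330) was at 51.4 FPKM in protoplasts, against 18.7 FPKM in intact tips and PDC1 (AT4G33070) at 1.19 FPKM in protoplasts and 6.93 FPKM in intact tips. The oxygen-sensing cysteine oxidases PCO1 (AT5G15120) and PCO2 (AT5G39890) were at 1.04 FPKM in protoplasts, against 25.998 FPKM in intact tips and at 0.159 FPKM in protoplasts and 9.47 FPKM in intact tips.

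Genes of compatible solutes, starch and sucrose were read next. Of 25 genes of proline, raffinose and trehalose synthesis 8 were higher and 3 lower, and the list median was 0.50, centred 0.96. SIP1 (AT5G40390), the raffinose synthase RS5, was at 478 FPKM in protoplasts, against 56.6 FPKM in intact tips. The trehalose phosphate synthase-like gene TPS11 (AT2G18700) was at 132 FPKM in protoplasts and 12.1 FPKM in intact tips, and the phosphatase TPPG (AT4G22590) at 490.5 FPKM in protoplasts, against 86.6 FPKM in intact tips. Of 35 starch and sucrose enzymes 6 were higher and 7 lower (10 and 1 once centred). BAM1 (AT3G23920), the beta-amylase that degrades starch under osmotic stress, was at 1055 FPKM in protoplasts and 43.1 FPKM in intact tips. SPS2F (AT5G11110), a sucrose phosphate synthase, was at 649 FPKM in protoplasts, against 59.3 FPKM in intact tips, and SPP2 (AT3G52340), which acts after it, at 1.59 FPKM in protoplasts and 7.90 FPKM in intact tips. The summed FPKM of the starch and sucrose list was 3265 in protoplasts and 1098 in intact tips.

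The cytoskeleton was level as deposited and above the median gene. Of 15 tubulins 0 were higher and 1 lower (1 and 0 once centred), and of 52 actins and actin-binding proteins 5 were higher and 2 lower, with list medians of 0.45 and 0.43 once centred. TUB4 (AT5G44340) was at 555 FPKM in protoplasts, against 420.1 FPKM in intact tips, and ACT2 (AT3G18780) at 1058 FPKM in protoplasts and 917 FPKM in intact tips. The myosin-binding proteins MyoB2 (AT1G70750) and MyoB1 (AT1G08800) were the highest in ratio, at 59.6 FPKM in protoplasts, against 12.9 FPKM in intact tips and at 100.2 FPKM in protoplasts and 26.9 FPKM in intact tips. Kinesins and microtubule-associated proteins had 2 of 30 higher and 6 lower (5 and 3 once centred). Those that serve cell division were among the lower ones: the kinesin HIK (AT1G18370) (HINKEL) of the cell plate was at 1.15 FPKM in protoplasts, against 5.56 FPKM in intact tips, and EB1C (AT5G67270) of the spindle at 2.76 FPKM in protoplasts and 10.3 FPKM in intact tips.

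Genes of the dividing nucleus were lower. Of 31 histones 0 were higher and 24 lower, and the list median was -1.71, centred -1.26. H3.1 (AT5G10390), a replication-dependent histone, was at 1.90 FPKM in protoplasts, against 21.98 FPKM in intact tips. Another H3.1 gene, H3.1 (AT3G27360), had the second highest ratio of the list, at 133 FPKM in protoplasts and 135 FPKM in intact tips. H3.3 (AT4G40040), the replacement histone that needs no replication, was at 246 FPKM in protoplasts, against 469.6 FPKM in intact tips. HTA13 (AT3G20670) was at 76.7 FPKM in protoplasts and 52.2 FPKM in intact tips, the top of the list in ratio. Many histone genes are near copies between which reads could be shared. Of 59 cyclins, kinases and partners 2 were higher and 29 lower. CYCB1;3 (AT3G11520) of mitosis was at 0.621 FPKM in protoplasts, against 7.99 FPKM in intact tips, and CDC20.2 (AT4G33260), an activator of mitotic protein breakdown, at 0.368 FPKM in protoplasts and 6.76 FPKM in intact tips. The higher pair was SMR4 (AT5G02220), an inhibitor of cyclin-dependent kinases, at 35.4 FPKM in protoplasts, against 1.56 FPKM in intact tips, and CDKG1 (AT5G63370), a kinase of splicing, at 134 FPKM in protoplasts and 50.1 FPKM in intact tips. Of 33 replication genes 1 was higher and 20 lower. PSF1 (AT1G80190), a subunit of the replicative helicase complex, was at 1.76 FPKM in protoplasts, against 9.53 FPKM in intact tips, and RPA3A (AT3G52630), the small subunit of the protein that coats single-stranded DNA, at 1.91 FPKM in protoplasts and 30.01 FPKM in intact tips. The higher one was RPA2 (AT2G24490), the middle subunit of the same coat protein, at 48.8 FPKM in protoplasts, against 13.8 FPKM in intact tips. Centred on genes of like mean level, the medians of cyclins and of replication genes were -0.13 and -0.26, nearer to 0 than the -0.54 and -0.73 relative to the median gene.

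Of 46 small nucleolar RNA genes past the floor 5 were higher and 34 lower, and of 53 microRNA genes 17 were higher and 26 lower. Many such genes lie within or beside other genes, 6 and 10 of them shared a pair of values with another gene, and the strand of counting is not given in the sources used here, so single values are uncertain. The microRNA precursor gene MIR170 (AT5G66045) was at 824 FPKM in protoplasts and 66.1 FPKM in intact tips, and MIR414 (AT1G67195) at 0.418 FPKM in protoplasts, against 61.1 FPKM in intact tips. MIR159b was listed at 0 in protoplasts and at 47.2 FPKM in intact tips, and MIR156b at 32.1 FPKM in protoplasts and at 0 in intact tips. The medians of the small nucleolar and the microRNA lists were -2.35 and -0.94. Over all genes past the floor, 91 were listed at 0 in protoplasts and 57 in intact tips, and the medians of these genes in the other library were 10.5 and 14.2 FPKM.

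**Figure D3:**
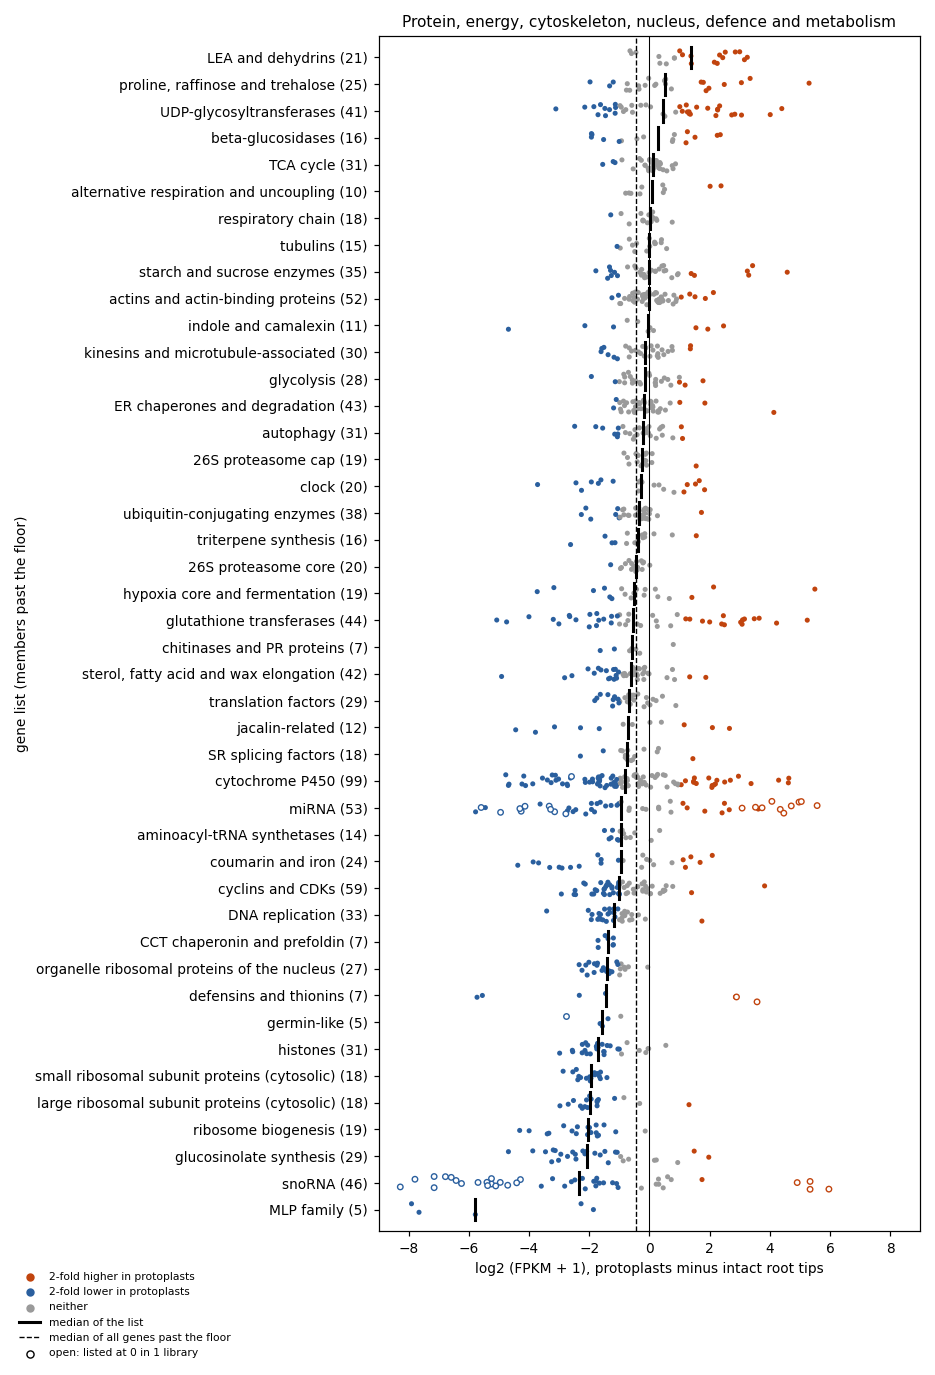
Differences in log2(FPKM + 1), protoplasts minus intact root tips, of lists for protein synthesis and turnover, energy, cytoskeleton, nucleus, defence and metabolism, 1 point a gene, open where a gene is listed at 0 in 1 library. LEA proteins at 1.38 lie at the top, and ribosome, histone and glucosinolate lists lie left of the dashed median of all genes.

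Glucosinolates are sulfur-containing defence compounds of the cabbage family. Of 29 genes of their synthesis 2 were higher and 21 lower, and the list median was -2.09, centred -1.63, and 15 were 4-fold lower. CYP79B3 (AT2G22330) and CYP79B2 (AT4G39950), which convert tryptophan to indole acetaldoxime, were at 1.33 FPKM in protoplasts and 59.1 FPKM in intact tips and at 16.7 FPKM in protoplasts, against 77.5 FPKM in intact tips. CYP83B1 (AT4G31500), the next enzyme, was at 17.5 FPKM in protoplasts and 271 FPKM in intact tips. IMS2 (AT5G23020), also named MAM3, which lengthens the side chain of aliphatic glucosinolates, was at 1.11 FPKM in protoplasts, against 22.2 FPKM in intact tips. The modifying enzymes at the end of the route differed: CYP81F3 (AT4G37400) was at 131 FPKM in protoplasts and 32.7 FPKM in intact tips, and FMO GS-OX4 (AT1G62570), which oxidises the side chain, at 816 FPKM in protoplasts, against 290.0 FPKM in intact tips. In the list of indole and camalexin synthesis 3 of 11 were higher and 3 lower (3 and 2 once centred). Of the genes of tryptophan synthesis, ASA1 (AT5G05730) was at 47.6 FPKM in protoplasts and 15.6 FPKM in intact tips and TSB1 (AT5G54810) at 396 FPKM in protoplasts, against 102 FPKM in intact tips, while ASA2 (AT2G29690) was lower, at 2.57 FPKM in protoplasts and 7.15 FPKM in intact tips. The peptidase GGP1 (AT4G30530), which processes glutathione conjugates, was at 1957 FPKM in protoplasts, against 354 FPKM in intact tips.

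The proteins that act when glucosinolates are broken down were mixed. The beta-glucosidase PYK10 (AT3G09260), the main protein of endoplasmic reticulum bodies in roots, was at 2853 FPKM in protoplasts and 8200.4 FPKM in intact tips, and its binding protein PBP1 (AT3G16420) of the jacalin family at 1173 FPKM in protoplasts, against 2147 FPKM in intact tips. The predicted myrosinases BGLU34 (AT1G47600) and BGLU35 (AT1G51470) were at 551 FPKM in protoplasts and 107 FPKM in intact tips and at 462 FPKM in protoplasts, against 95.9 FPKM in intact tips. The nitrile specifier NSP1 (AT3G16400) was at 67.0 FPKM in protoplasts and 605 FPKM in intact tips, and NSP5 (AT5G48180) at 468 FPKM in protoplasts, against 73.2 FPKM in intact tips. So each kind, glucosidase and specifier, had a lower and a higher form.

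Detoxifying enzymes were abundant on both sides. Of 44 glutathione transferases 15 were higher and 17 lower (17 and 14 once centred), 12 and 8 of them 4-fold, and their summed level was 15589 FPKM in protoplasts and 7476 FPKM in intact tips. In the tau class GSTU26 (AT1G17190) was at 3709.5 FPKM in protoplasts and 924 FPKM in intact tips, GSTU5 (AT2G29450) at 1705 FPKM in protoplasts, against 90.1 FPKM in intact tips and GSTU25 (AT1G17180) at 1295 FPKM in protoplasts and 102 FPKM in intact tips, while GSTU9 (AT5G62480) was at 1.56 FPKM in protoplasts, against 67.8 FPKM in intact tips. A run of 3 neighbours on chromosome 2, GSTU4, GSTU3 and GSTU2, was higher together. In the phi class GSTF2 (AT4G02520) was at 12.9 FPKM in protoplasts and 466 FPKM in intact tips and GSTF3 (AT2G02930) at 1.297 FPKM in protoplasts, against 35.9 FPKM in intact tips, near copies whose reads could be shared. UDP-glycosyltransferases had 18 of 41 higher and 11 lower, with UGT74F2 (AT2G43820), a salicylic acid glucosyltransferase, at 650.4 FPKM in protoplasts and 39.2 FPKM in intact tips and UGT76C2 (AT5G05860), which inactivates cytokinin, at 2.21 FPKM in protoplasts, against 26.7 FPKM in intact tips.

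Cytochromes P450 had 19 of 99 higher and 44 lower, and the list median was -0.82, centred -0.37. CYP81D8 (AT4G37370) was at 136 FPKM in protoplasts and 4.53 FPKM in intact tips, and CYP715A1 (AT5G52400) at 52.3 FPKM in protoplasts, against 1.17 FPKM in intact tips. CYP716A2 (AT5G36140), a triterpene-modifying enzyme, was at 0.655 FPKM in protoplasts and 41.0 FPKM in intact tips. The most abundant, CYP705A5 (AT5G47990) of the thalianol cluster, was at 901 FPKM in protoplasts, against 1167 FPKM in intact tips. A run of 5 neighbouring CYP705A genes on chromosome 3 and one of 3 CYP71B genes on chromosome 1 were lower throughout. In the triterpene list as a whole 1 of 16 was higher and 4 lower (2 and 2 once centred), with marneral synthase MRN1 (AT5G42600) at 144 FPKM in protoplasts and 341 FPKM in intact tips.

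Iron and coumarin genes had 5 of 24 higher and 12 lower. FRO2 (AT1G01580), the iron reductase of the root surface, was at 7.50 FPKM in protoplasts, against 1.64 FPKM in intact tips, and NAS1 (AT5G04950), which makes the iron chelator nicotianamine, at 0.158 FPKM in protoplasts and 23.03 FPKM in intact tips. IRT3 (AT1G60960) was at 4.31 FPKM in protoplasts, against 76.3 FPKM in intact tips. Of 7 defensin-type genes past the floor, of 90 in the table, 3 were higher and 4 lower. The defensins PDF2.5 (AT5G63660), LCR69 (AT2G02100) and LCR68 (AT2G02130) were abundant in intact tips and lower in protoplasts. PDF2.5 was at 7.93 FPKM in protoplasts and 418 FPKM in intact tips, LCR69 at 1.53 FPKM in protoplasts, against 133 FPKM in intact tips and LCR68 at 292 FPKM in protoplasts and 805 FPKM in intact tips. Of the higher genes, LCR3 and LCR43 were at 10.9 and 6.44 FPKM in protoplasts and listed at 0 in intact tips. All 5 major latex-like (MLP) genes past the floor, of 9 in the table, were lower, at a median of -5.79, with the most abundant, MLP34 (AT1G70850), at 427 FPKM in protoplasts, against 2064 FPKM in intact tips. Germin-like proteins had 0 of 5 higher and 4 lower, and the chitinase-like gene POM1 (AT1G05850), needed for cellulose assembly, was at 442 FPKM in protoplasts and 606 FPKM in intact tips.

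Late embryogenesis abundant (LEA) proteins and dehydrins, hydrophilic proteins of drying cells, had the highest share of higher genes among the 97 lists. Of 21, 13 were higher and 0 lower, 61.9% against the 11.4% of all genes, and the list median was 1.38, centred 1.84. COR413-PM1 (AT2G15970) was at 2832 FPKM in protoplasts, against 1077 FPKM in intact tips, LEA4-5 (AT5G06760) at 357 FPKM in protoplasts and 39.04 FPKM in intact tips and LEA7 (AT1G52690) at 373 FPKM in protoplasts, against 45.7 FPKM in intact tips. Their lowest ratio was that of KIN2 (AT5G15970), at 270.2 FPKM in protoplasts and 423 FPKM in intact tips. Centred on genes of like length and of like level the median was 1.98 and 1.45.

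Enzymes of fatty acid elongation, waxes and sterols had 2 of 42 genes higher and 16 lower (5 and 7 once centred), with KCS2 (AT1G04220), a suberin elongase, at 0.104 FPKM in protoplasts, against 32.3 FPKM in intact tips and KCS10 (AT2G26250) at 0.258 FPKM in protoplasts and 7.87 FPKM in intact tips. FAD7 (AT3G11170), a plastid desaturase that feeds jasmonate synthesis, was at 48.9 FPKM in protoplasts, against 12.6 FPKM in intact tips. Clock genes were read since the time of harvest is not given in the labels. Of 20, 5 were higher and 7 lower (6 and 6 once centred). The morning gene LHY (AT1G01060) was at 1.86 FPKM in protoplasts and 36.6 FPKM in intact tips, and the clock-driven RNA-binding gene GRP7 (AT2G21660), known to peak late in the day, at 150.2 FPKM in protoplasts, against 819.9 FPKM in intact tips. The evening genes PCL1 (AT3G46640) (LUX), BOA (AT5G59570) and PRR5 (AT5G24470) were at 121.7 FPKM in protoplasts and 37.9 FPKM in intact tips, at 45.6 FPKM in protoplasts, against 12.1 FPKM in intact tips and at 21.7 FPKM in protoplasts and 6.86 FPKM in intact tips. Genes that peak late in the day thus stood on both sides, and the part of harvest time in the comparison was not tested.

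**Figure D4:**
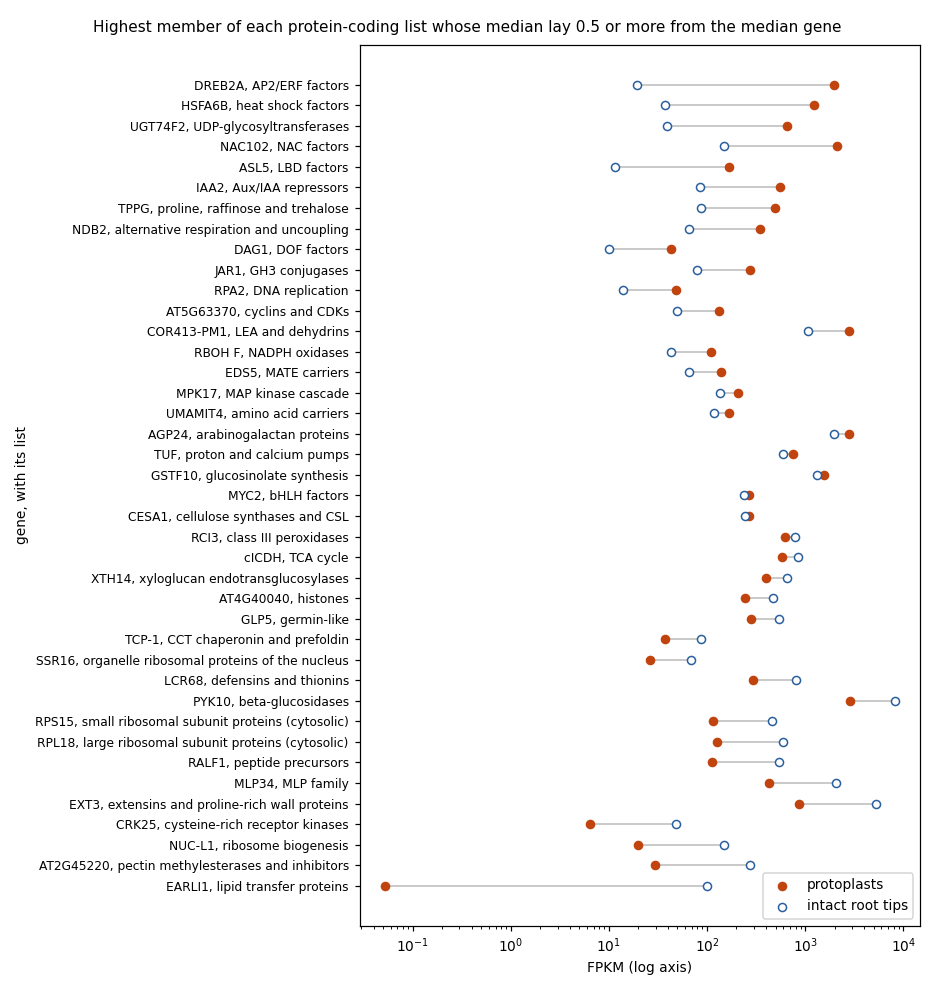
FPKM of the most abundant member of each list of protein-coding genes whose median lay 0.5 or more from the median gene, filled for protoplasts and open for intact root tips, on a log axis and ordered by difference. DREB2A at the top was at 1979.6 FPKM in protoplasts and 19.5 FPKM in intact tips, and EARLI1 at the bottom at 0.0523 FPKM in protoplasts and 101.3 FPKM in intact tips.

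Among genes ranked 13 to 30 by increase or by decrease, some lay outside these lists. RAS1 (AT1G09950), a regulator of abscisic acid and salt response, was at 64.0 FPKM in protoplasts, against 1.25 FPKM in intact tips. PMZ (AT3G28210), the zinc finger protein SAP12, was at 206 FPKM in protoplasts and 6.51 FPKM in intact tips, and NFXL1 (AT1G10170), a factor of salt and heat tolerance, at 366 FPKM in protoplasts, against 14.1 FPKM in intact tips. The cell death suppressor BAP2 (AT2G45760) was at 51.2 FPKM in protoplasts and 1.04 FPKM in intact tips, and the SKP1-like gene SK11 (AT4G34210) at 47.5 FPKM in protoplasts, against 0.618 FPKM in intact tips. AGL61 (AT2G24840), a MADS-box factor known from the embryo sac, was at 26.5 FPKM in protoplasts and 0.0723 FPKM in intact tips. On the lower side ANNAT7 (AT5G10230), an annexin, was at 0.0677 FPKM in protoplasts, against 49.5 FPKM in intact tips, the beta-galactosidase BGAL8 (AT2G28470) at 3.47 FPKM in protoplasts and 172 FPKM in intact tips, and the peroxiredoxin TPX2 (AT1G65970) at 3.63 FPKM in protoplasts, against 173 FPKM in intact tips. The tropinone reductase-like gene TRI (AT2G29330) was at 0.181 FPKM in protoplasts and 40.1 FPKM in intact tips, and isochorismate synthase ICS2 (AT1G18870) at 0.479 FPKM in protoplasts, against 42.4 FPKM in intact tips.

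The difference also moved with features that are no gene function. Protein-coding genes were put in 5 bins of equal size by gene length, and the median log2 difference was -0.80 in the shortest, then -0.60, -0.45, -0.33 and -0.23 in the longest. By the mean of both libraries, which shares its values with the difference, it was -1.07 in the lowest of 5 bins, then -0.66, -0.40, -0.21 and -0.06 in the highest. Each chromosome had a median between -0.47 and -0.44. The part of length and level in the families above was not tested, beyond the list medians centred on genes of like length or level.

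Genes were also grouped by the nucleus cluster with their highest average, which describes where in the whole root a transcript is most abundant per nucleus. Of the 15110 genes, 11331 reached 0.5 per 10000 in a cluster. Genes highest in cluster 11 had a median of -1.48 and 64.0% of 286 were 2-fold lower, and genes of cluster 9 had a median of -1.27 with 61.9% of 1157 lower. Clusters 8, 15 and 18 had medians of -1.30, -1.15 and -1.13. Genes highest in cluster 6 had a median of 0.25 with 17.9% of 574 higher and 10.3% lower, and those of cluster 2 a median of 0.13. Genes of some clusters were thus lower as a body, and genes of others level as deposited. Relative to the median gene, genes of clusters 6 and 2 lay higher, with centred medians of 0.71 and 0.58. The nuclei came from older plants in another light regime, the clusters carry numbers only, and both libraries enter each difference, so a lower share of those cells and a lower level within them cannot be told apart.

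**Figure D5:**
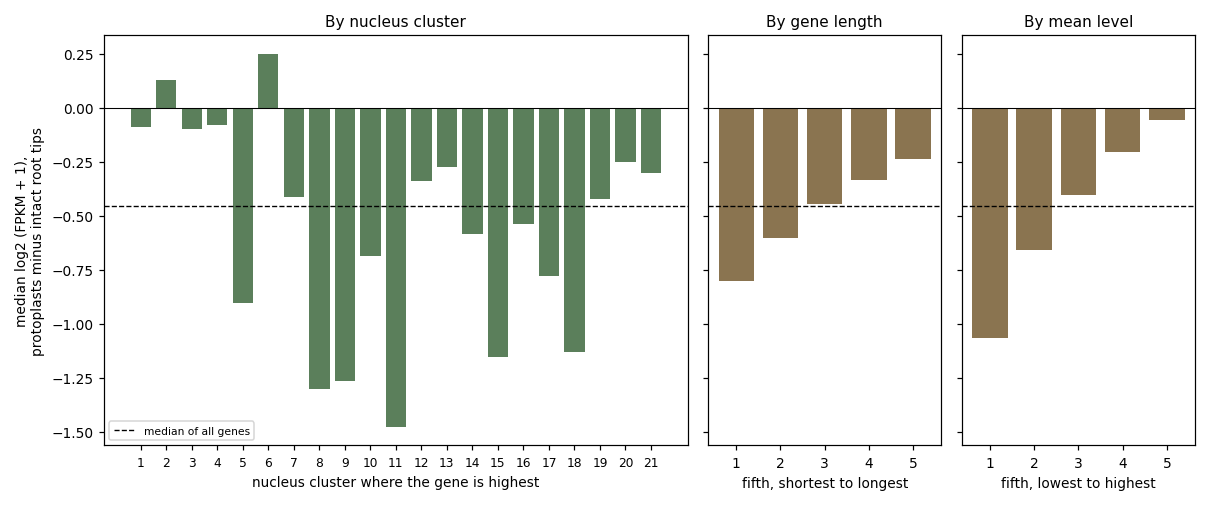
Median difference in log2(FPKM + 1), protoplasts minus intact root tips, of genes grouped by the nucleus cluster with their highest average (left), by gene length (centre) and by mean level (right), each in 5 bins of equal size, with the median of all genes dashed. Clusters 8, 9, 11, 15 and 18 lie under -1, cluster 6 at 0.25, and short and low genes lie below long and high ones.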

How the data were processed

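Bulk RNA was measured in 1 library of protoplasts and 1 library of intact root tips, from total RNA extracted with a plant kit and built into libraries with the TruSeq kit, per the labels' protocols. The values are FPKM as deposited by the authors, and the program that computed them, its multi-mapping rule and the strand of counting are not given in the sources used here. TopHat2 2.0.11, Bowtie2 2.1.0, SAMtools 0.1.19, FastQC, Cell Ranger 3.1.0, Seurat 3.1.5 and the TAIR10 build are named in the submitters' processing notes, with no role stated. The cluster averages of nuclei, scores as deposited by the authors, pool 5 RNA libraries of nuclei and add up to 10000 in each of the 21 clusters. FPKM hold no read depth, so no counting interval is given, and reads of near copies can move between paralogues.

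From these values log2(FPKM + 1) in protoplasts minus log2(FPKM + 1) in intact tips was computed for nuclear genes with 5 FPKM or more in either library, and a gene was called at 2-fold. With 1 library a side there is no test, error or replicate check. The rate of false calls at 1 library a side was not tested. Alternatives changed the pseudocount, the floor and the scaling, and left out genes that share a pair of values. Locus names were paired with symbols through a RefSeq table of the TAIR10.1 assembly, which held 32809 of the 33550 loci, and it was used for names, lengths and neighbours and for no coordinates. Python 3.11.15, pandas 2.3.3, NumPy 2.4.6 and matplotlib 3.10.9 were used.

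Genes and lists were chosen with earlier results of these data known. The text names, from each list with 3 or more members past the floor, genes among the 3 highest and the 3 lowest ratios and the most abundant member, and named genes ranked 13 to 30 by increase or decrease, beside fixed tissue markers. Not every gene that this rule picks is reported here. After values were seen, 9 organelle ribosomal proteins that had been filed as cytosolic were moved to their own list, and SKIP6 and FIB4 were dropped from ribosome biogenesis. A planned search for promoter motifs was not run, and no sequence is shown.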

Additional observations from a re-analysis of the deposited data

How the results depend on the processing

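The counts of genes 2-fold higher and lower, 1718 and 4582 as deposited, stayed within 1.5 times under a pseudocount of 0.1 FPKM, with no floor, with both libraries scaled to the same sum over nuclear genes (with or without the 100 highest genes), and without genes that share a pair of values. They moved further as follows. Centring on the median gene gave 2632 higher and 2845 lower, and centring on the median of genes of like length (5 bins) gave 2662 higher and 2693 lower. Centring on genes of like mean level (5 bins) gave 2475 lower. A pseudocount of 5 FPKM gave 2960 lower, and a floor of 20 FPKM, which leaves 8443 genes, gave 2243 lower. The length and level bins were chosen after the data were seen. Of the 97 list medians, 31 changed sign when centred on the median gene, 29 when centred on the length bins, 24 when centred on the level bins and 17 when both libraries were scaled to the same sum. A floor of 20 FPKM changed the sign of 12 of the 94 medians that were left. Neither pseudocount, nor leaving out genes with a shared pair, changed the sign of any list median.

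No paired analysis was possible because each group has 1 library, and for the same reason leaving out a library was not run. The motif search was not run either. The unknown depth limits what can be said of any gene under about 5 FPKM in both libraries, and of single genes in general.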
